A study of Canis lupus familiaris with 2 samples.

Results

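Osteopontin, its receptor CD44, the enzymes that make hyaluronan and the cell-surface proteoglycans of the syndecan and glypican families were followed in MDCK cells cultured under 2- or 50-cm-high medium. The genes were chosen by their symbols, with earlier FPKM values of these cultures already known, and comprised SPP1, CD44, HAS2, HAS3, SDC1, SDC2, SDC4, GPC1, GPC4 and GPC6. All 10 were found among the 23510 features of the files. MDCK is an established line of dog kidney epithelium, and RNA sequencing was done on 1 culture in 2-cm-high medium (2 cm H2O) and 1 culture in 50-cm-high medium (50 cm H2O). Both cultures were started from 40000 cells on a semipermeable insert and kept in EMEM with 10% serum, and day 3 is recorded for both. The comparison asks how gene expression differs when a taller medium column presses on the cells.

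With 1 sample in each group, none of the values has a replicate, no difference could be set against replicate error, and no test was made. Medium height, culture and library cannot be told apart. FPKM counts the fragments of a gene per length of its exons and per size of the library, so levels of different genes can be compared. Where a pair of FPKM values is given without further words, the first is from the culture in 2-cm-high medium (the 2-cm culture) and the second from that in 50-cm-high medium (the 50-cm culture). The number of reads is not given, but many of the lowest values lay on steps left by whole reads, and a single read added 9.77% more FPKM to a gene in the 50-cm culture. Below, a ratio at low FPKM is said to be given by whole reads where, after this correction, it lay within 0.005% of a ratio of at most 20 reads in each culture. These are the smallest such numbers, and their multiples give the same ratio. The files name features by symbol alone and hold neither isoforms nor genomic positions, so the splice variants of CD44 are summed in 1 value. Of 9 kidney epithelial markers in the files, 8 were above 1 FPKM in both cultures, the exception being CDH16 (1.96 FPKM in the 2-cm culture and 0.676 FPKM in the 50-cm culture). The fibroblast markers summed to 0.374 and 0.401 FPKM, the endothelial markers to 0.474 and 0.277 FPKM, and among the leukocyte markers PTPRC, LYZ, ITGAM and CD3E were listed at 0 while CD14 had 4.82 and 3.77 FPKM. The part of these markers in the values below was not tested.

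Osteopontin is a secreted acidic phosphoprotein that binds cells through integrins and CD44, and renal tubule epithelium is one of its known sources. CD44 is a transmembrane glycoprotein whose main ligand is hyaluronan, a long unsulfated sugar polymer that is extruded through the plasma membrane by the synthases as it is made. Syndecans span the membrane and glypicans are held to it by a lipid anchor, and both carry heparan sulfate chains that bind growth factors and matrix proteins.

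Among the 10 genes, 6 exceeded 1 FPKM in each culture, namely SPP1, CD44, HAS3, SDC1, SDC4 and GPC1. GPC4 and HAS2 were detected at lower values, and SDC2 and GPC6 were listed at 0 in both cultures. SPP1 was the most abundant feature of either culture and was lower in the 50-cm culture, and GPC1 was higher. The other 4 of the 6 genes lay within 1.2-fold of their 2-cm value, as did 68.1% of all features above 1 FPKM in both cultures. None of the 6 passed a 2-fold difference, whereas 1.67% of the 11057 features above 1 FPKM in both cultures did, 0.389% upward and 1.28% downward. SPP1 and GPC1, 2 of the 6, passed 1.5-fold, compared with 7.19% of all those features. The median log2 ratio of 50-cm over 2-cm FPKM was 0.05 over the 6 genes and 0.01 over all 11057 features. Of the 11057 features, 52.6% were higher in the 50-cm culture, the share to set beside the counts of higher genes below. Because the genes were chosen with these values known, the counts describe the genes and give no measure of how unusual they are.

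**Figure D1:**
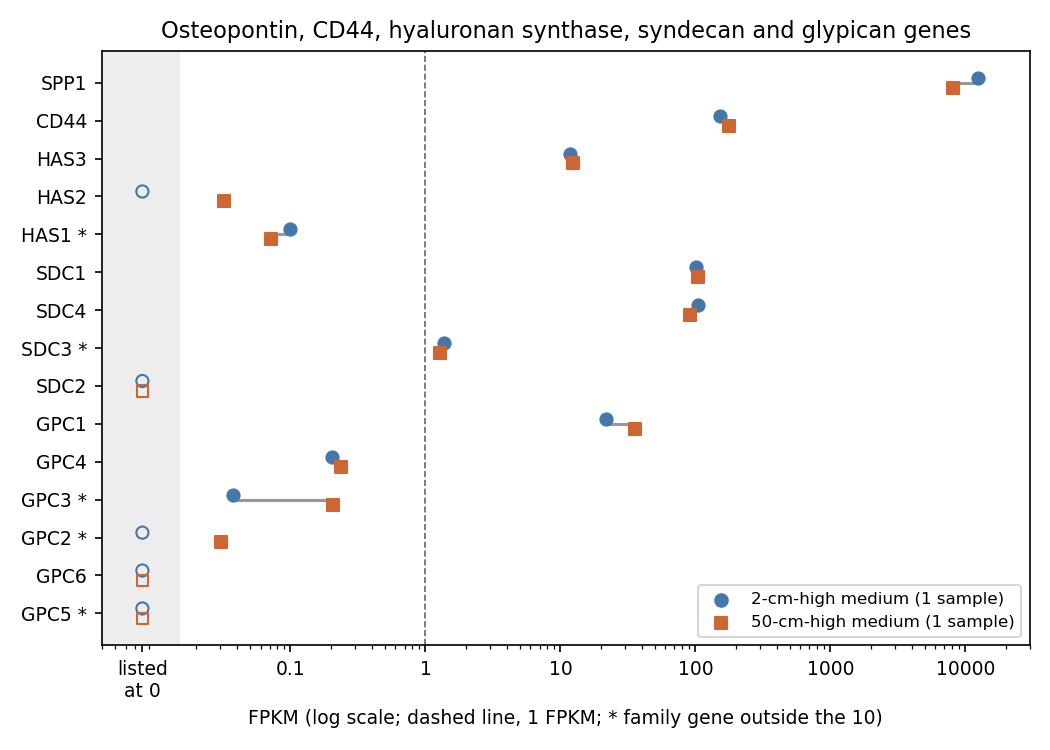
FPKM on a log scale for the 10 genes and 5 further members of their families (asterisks), with circles for the 2-cm culture and squares for the 50-cm culture (1 sample each). Open symbols in the gray band are values listed at 0, and the dashed line marks 1 FPKM. SPP1 stands far to the right of the rest, from 12470.2 to 8135 FPKM, and only SPP1 and GPC1 among the genes above 1 FPKM have visibly separate symbols.

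SPP1, which encodes osteopontin, had 12470.2 FPKM in the 2-cm culture and 8135 FPKM in the 50-cm culture. The 50-cm value was thus 65.2% of the 2-cm value, a log2 ratio of -0.62 and a difference of -4335 FPKM. SPP1 nevertheless held rank 1 in both cultures. In 2-cm-high medium it stood 2.01 times above the next feature, TMSB10 (6192 FPKM), and in the 50-cm culture 1.32 times above the next, LGALS3 (6152 FPKM). Its share of the summed FPKM of all features was 2.08% in the 2-cm culture and 1.32% in the 50-cm culture. In a bulk RNA sample, fewer cells expressing a gene and less of its RNA per cell cannot be told apart.

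The other abundant features differed less. TMSB10, which encodes the actin-monomer-binding thymosin beta 10, had a ratio of 50-cm over 2-cm FPKM of 0.922, and LGALS3, which encodes the lectin galectin-3, had a ratio of 0.996. RPLP1, a ribosomal stalk protein gene, S100A6, a calcium-binding protein gene, and LOC102156895, a locus without a gene name, had ratios of 0.961, 0.8999 and 1.01. LGALS3, TMSB10 and RPLP1 were also the features nearest to SPP1 in log2 FPKM over the 2 samples, yet their distances of 1.09, 1.13 and 1.37 on the log2 scale show that no feature had a level close to that of SPP1. Of the 500 features nearest to SPP1 in mean log2 FPKM, all of them less abundant (180 to 6164 FPKM), 4 had a lower log2 ratio and 496 a higher one, and the 5th and 95th percentiles of their log2 ratios were -0.27 and 0.41. This spread runs across genes and is not the error of SPP1.

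**Figure D2:**
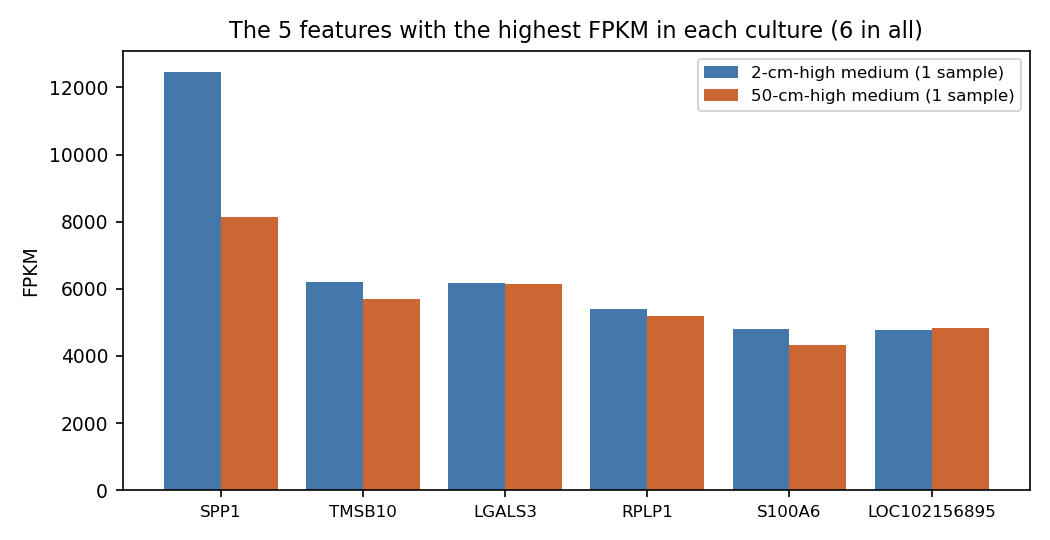
FPKM (bars from 0) of the 6 features that rank among the 5 highest in either culture, with 1 sample per bar. The SPP1 bars, 12470.2 and 8135 FPKM, differ visibly, whereas the paired bars of the other features are close to each other.

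A gene this abundant is part of any sum to which the cultures are scaled, though the scaling behind the deposited values is not given. Summed FPKM was 600496 in the 2-cm culture and 614100 in the 50-cm culture, and without SPP1 it was 588025 and 605965. When the cultures were scaled to the same sum, the log2 ratio of SPP1 was -0.65 instead of -0.62. With SPP1 left out of that sum it was -0.66. Quantile normalization gave 0 for SPP1 by construction, since it assigns the same value to the top feature of both cultures, and so carries no information on it.

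Osteopontin belongs to a family of acidic mineralized-tissue proteins whose other genes, MEPE, IBSP, DMP1 and DSPP, were at or near 0. DMP1 and DSPP were listed at 0 in both cultures. MEPE, the protein-coding gene next to SPP1 on one side in the RefSeq order of the dog assembly UU_Cfam_GSD_1.0, was listed at 0 in the 2-cm culture and had 0.0536 FPKM in the 50-cm culture. IBSP had 0.0746 and 0.164 FPKM, a ratio that 2 reads against 1 give. PKD2, the polycystin-2 gene on the other side of SPP1, had 6.13 and 5.05 FPKM. None of these relatives and neighbors exceeded 6.13 FPKM in either culture.

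Of the 10 listed integrin subunits that form osteopontin receptors, 7 were above 1 FPKM in both cultures, with 4 higher and 3 lower in the 50-cm culture, a median log2 ratio of 0.14 and no gene past 1.5-fold, a limit that 7.19% of all features passed. ITGB1, the beta subunit shared by many integrins, had the highest ratio (169 and 207 FPKM, 1.23-fold). ITGB8, a partner of the alpha v subunit, had the lowest (16.2 and 12.2 FPKM, ratio 0.752). ITGAV itself, the alpha v subunit, had 24.98 and 24.2 FPKM. ITGA8 and ITGA9 were listed at 0 in both cultures, and ITGA4 had 0.0657 FPKM in the 2-cm culture and was listed at 0 in the 50-cm culture.

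Of the 12 listed enzymes that cleave, crosslink or phosphorylate osteopontin or act on mineral, only 3 were above 1 FPKM in both cultures. PLAU, which encodes urokinase plasminogen activator, was higher in the 50-cm culture (31.0 and 47.4 FPKM, 1.53-fold). FAM20C, the kinase that phosphorylates secreted proteins such as osteopontin, had 18.2 and 19.7 FPKM. ACP5, a phosphatase able to remove phosphate from osteopontin, had 20.2 and 17.8 FPKM. MMP3 and MMP7, proteases that cut osteopontin, were listed at 0 in both cultures.

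CD44 had 153 FPKM in the 2-cm culture and 177 FPKM in the 50-cm culture, 1.15-fold higher, a log2 ratio of 0.20. It ranked 582 and 530 by FPKM among the 23510 features. Among its 500 nearest features in mean log2 FPKM, 126 had a higher log2 ratio than CD44 and 374 a lower one, so its ratio lay within the bulk of genes at that level. SPP1 and CD44 therefore differed in opposite directions, without replicates to tell the CD44 difference from none. Of the 7 listed integrin receptor subunits above 1 FPKM in both cultures, 4 were higher and 3 lower. The FPKM of SPP1 was 81.3 times that of CD44 in the 2-cm culture and 46.0 times in the 50-cm culture. PFKP, LOC475115 and TTLL12 had the levels nearest to CD44 over the 2 samples, at distances of 0.0077 to 0.034 on the log2 scale, a likeness that rests on 2 points.

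The 11 genes listed as partners, splicing factors or sheddases of CD44 were all above 1 FPKM in both cultures, 5 of them higher and 6 lower in the 50-cm culture, with a median log2 ratio of -0.01. The transcripts of the ERM proteins, which tie CD44 to cortical actin, were each slightly higher, and EZR had the highest ratio of the list (261 and 332 FPKM, 1.27-fold), with MSN at 103 and 117 FPKM and RDX at 74.95 and 82.7 FPKM. ESRP1 and ESRP2, epithelial splicing factors that promote inclusion of CD44 variant exons, had 33.7 and 36.1 FPKM and 28.1 and 25.5 FPKM. The sheddase genes ADAM10 and ADAM17 had ratios of 0.957 and 0.990. MMP14, a membrane-bound protease that cuts CD44, had the lowest ratio (2.58 and 1.31 FPKM, ratio 0.508). Its log2 ratio of -0.98 lay just inside the 2-fold limit. With the cultures scaled to the same sum it passed that limit (-1.01, or -1.02 with SPP1 left out of the sum). It stayed inside when recentred on the median (-0.99), with quantile normalization (-0.77) and with pseudocounts of 0.1 (-0.92) and 1 (-0.63). A minimum of 5 FPKM left MMP14 out.

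Of the hyaluronan synthases, HAS3 alone was above 1 FPKM, with 11.9 FPKM in the 2-cm culture and 12.4 FPKM in the 50-cm culture (1.04-fold, log2 ratio 0.06). Of its 500 nearest features, 200 had a higher log2 ratio and 300 a lower one. HAS2 was listed at 0 in the 2-cm culture and had 0.0321 FPKM in the 50-cm culture, and HAS1 had 0.0989 and 0.0724 FPKM, a ratio that 2 reads against 3 give. HAS3 thus made up nearly all of the summed synthase FPKM, 11.97 in the 2-cm culture and 12.5 in the 50-cm culture. UGDH and UGP2, which help to supply a UDP-sugar for hyaluronan, had ratios of 1.13 and 1.11.

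Of the 10 hyaluronan breakdown genes in the files, 7 were above 1 FPKM in both cultures, 4 higher and 3 lower, with a median log2 ratio of 0.04. HYAL1, a lysosomal hyaluronidase, was the lowest (38.8 and 21.9 FPKM, ratio 0.564), and HYAL2, a hyaluronidase anchored at the cell surface, was the highest (29.6 and 32.7 FPKM, 1.11-fold). TMEM2, a cell-surface hyaluronidase, had 8.76 and 8.98 FPKM, a difference that turned to the other side when SPP1 was left out of the scaling sum. The 5 hyaluronan-binding genes above 1 FPKM included CD44 itself, HMMR (23.3 and 23.8 FPKM) and HABP4 (9.64 and 8.61 FPKM). LYVE1, a CD44-related hyaluronan receptor known from lymphatic endothelium, had 5.82 and 8.66 FPKM (1.49-fold). VCAN, which encodes the hyaluronan-binding proteoglycan versican, had 52.3 and 37.6 FPKM (ratio 0.719). For HMMR, 1.02-fold higher as deposited, 3 of the 4 rescalings put the 50-cm value lower.

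SDC1 and SDC4, the syndecans typical of epithelia and of focal adhesions, were expressed at nearly the same level. SDC1 had 102 FPKM in the 2-cm culture and 105 FPKM in the 50-cm culture (1.03-fold, log2 ratio 0.04), and its sign turned when SPP1 was left out of the scaling sum and under quantile normalization. SDC4 had 104 and 90.7 FPKM (ratio 0.870, log2 ratio -0.20), and 51 of its 500 nearest features had a lower log2 ratio. The order of the pair was therefore SDC4 above SDC1 in the 2-cm culture and SDC1 above SDC4 in the 50-cm culture, without replicates to tell either order from equality. SDC3 had 1.38 and 1.27 FPKM, a ratio of 0.924 that turned above 1 under quantile normalization. SDC2 was listed at 0 in both cultures, and so was ATP5O, which encodes a subunit of mitochondrial ATP synthase, so a 0 in these files does not show that the RNA was absent. The 4 syndecans summed to 207 and 197 FPKM.

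**Figure D3:**
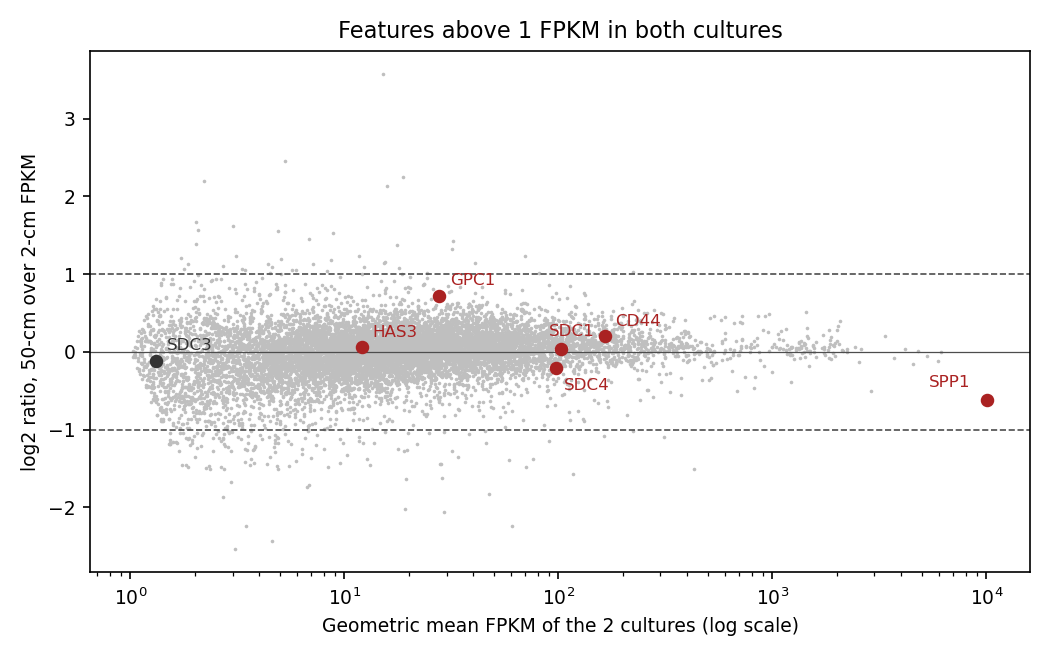
Log2 ratio of 50-cm over 2-cm FPKM against the geometric mean FPKM of both cultures (log scale) for the 11057 features above 1 FPKM in both cultures (gray points), with the 6 genes above that minimum in red, SDC3 in black and dashed lines at 2-fold. GPC1 at 0.72 and SPP1 at -0.62 lie at the edges of the cloud but inside the lines, and CD44, HAS3, SDC1 and SDC4 lie within it.

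Of the 8 syndecan partner genes, 7 were above 1 FPKM in both cultures, 4 higher and 3 lower, with a median log2 ratio of 0.02. SDCBP, which encodes syntenin, the adaptor that binds the cytoplasmic tails of syndecans, had 353 and 289 FPKM (ratio 0.818). TIAM1, an exchange factor for Rac that binds syndecan-1, had the lowest ratio (2.99 and 2.44 FPKM, 0.816). PRKCA, the kinase that syndecan-4 recruits, had the highest (4.06 and 6.64 FPKM, 1.63-fold). Besides the sheddase genes ADAM10, ADAM17 and MMP14, the list for shedding of syndecans and glypicans held TIMP3, an inhibitor of ADAM proteases, with 66.8 and 99.5 FPKM (1.49-fold). The median log2 ratio of these 4 genes, the inhibitor included, was -0.04.

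GPC1 was the only glypican above 1 FPKM, with 21.6 FPKM in the 2-cm culture and 35.7 FPKM in the 50-cm culture, 1.65-fold higher (log2 ratio 0.72). Its rank by FPKM was 4461 in the 2-cm culture and 2966 in the 50-cm culture. Among the 11057 features above 1 FPKM, 4.26% had a ratio farther from 1 than GPC1, compared with 6.31% for SPP1. Of the 500 features nearest to GPC1 in mean log2 FPKM, 2 had a higher log2 ratio and 498 a lower one, again as a spread across genes. In the alternatives tried, the log2 ratio of GPC1 lay between 0.68 and 0.72.

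The other glypicans contributed little. GPC4 had 0.202 and 0.239 FPKM, a ratio of 1.18 that 14 reads against 13 give. GPC3 had 0.0376 and 0.206 FPKM, and no pair of up to 20 reads in each culture gave this ratio within the tight tolerance stated above. Missing that tolerance does not show that the GPC3 values rest on many reads. GPC2 was listed at 0 in the 2-cm culture and had 0.0304 FPKM in the 50-cm culture. GPC5 and GPC6, neighbors in the RefSeq order, were both listed at 0 in both cultures. The 6 glypicans together had 21.9 and 36.2 FPKM, nearly all of it GPC1.

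Among the 6 genes listed for glypican processing, 5 were above 1 FPKM in both cultures, with 3 higher, 2 lower and a median log2 ratio of 0.09. NOTUM had 10.1 and 9.83 FPKM. PCSK5 had the lowest ratio (0.896) and PCSK6 the highest (1.19), both being proprotein convertases. GPLD1, a phospholipase that cuts lipid anchors, had 2.30 and 0.964 FPKM and so failed the minimum in the 50-cm culture.

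Of the other proteoglycans listed, HSPG2, which encodes perlecan, and AGRN, which encodes agrin, were abundant and little different, with 70.1 and 78.4 FPKM and 100.4 and 107 FPKM. COL18A1, a basement membrane collagen that carries heparan sulfate, had 9.16 and 6.04 FPKM (ratio 0.660). TGFBR3, which encodes betaglycan, had 3.45 and 2.29 FPKM (ratio 0.663). The median log2 ratio of these 4 was -0.25.

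Heparan sulfate is built on a linker and then modified by separate sets of enzymes. Of the 11 linker and chain synthesis genes, 9 were above 1 FPKM in both cultures, 5 higher and 4 lower, none past 1.5-fold, with a median log2 ratio of 0.10. EXT1 and EXT2, whose products form the polymerase, had ratios of 0.863 and 0.825, EXT2 being the lowest of the list (48.4 and 39.97 FPKM). B3GAT3, which adds the last sugar of the linker, was the highest (26.0 and 30.9 FPKM, 1.18-fold). Of the 23 modification and breakdown genes in the files, 12 were above 1 FPKM, 5 higher and 7 lower, with a median log2 ratio of -0.05. HS6ST2, a 6-O-sulfotransferase, had the highest ratio (4.67 and 7.08 FPKM, 1.52-fold) and was the only one of these 12 past 1.5-fold, and PAPSS1, which makes the sulfate donor, the lowest (50.8 and 44.1 FPKM, 0.868). HPSE, the heparanase gene, had 7.38 and 7.52 FPKM, and its difference turned to the other side in both scalings to a common sum.

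The 15 lists together held 138 genes of the files, of which 79 were above 1 FPKM in both cultures. In 50-cm-high medium 43 of these were higher and 36 lower, compared with 52.6% higher among all features above 1 FPKM in both. None passed 2-fold, compared with 1.67% of all those features, and the median log2 ratio was 0.04. Rescaling the cultures moved the number of higher genes by at most 1 in any list. A difference past 1.5-fold was seen in 9 (11.4%), compared with 7.19% of all features. Upward these were GPC1, PRKCA, PLAU and HS6ST2, and downward SPP1, MMP14, HYAL1, COL18A1 and TGFBR3.

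**Figure D4:**
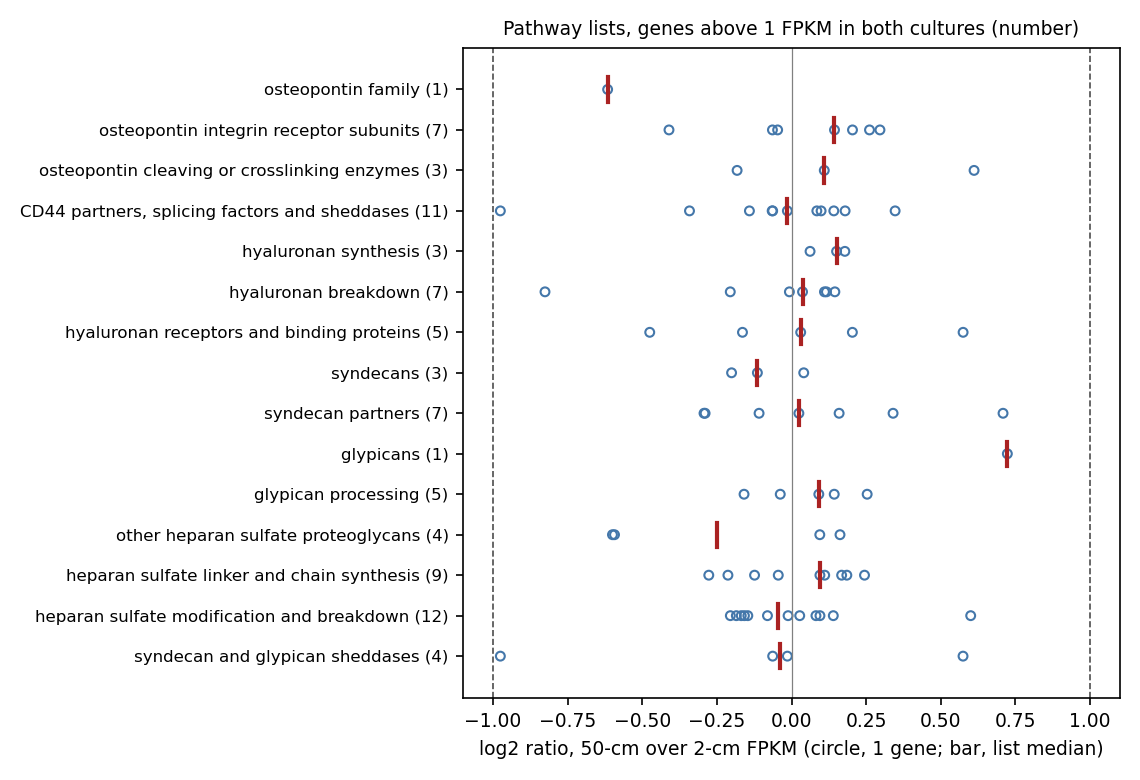
Log2 ratio of 50-cm over 2-cm FPKM (1 sample each) for the genes of each pathway list above 1 FPKM in both cultures. Circles are genes, red bars list medians, the numbers in parentheses the genes plotted, and dashed lines 2-fold. No circle crosses the lines, MMP14 at -0.98 and HYAL1 at -0.83 lying farthest to the left and GPC1 at 0.72 farthest to the right.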

How the data were processed

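RNA from 1 MDCK culture under each medium height was analysed. The authors sequenced TruSeq stranded libraries as single-end reads of 75 bases, aligned the reads to CanFam3.1 (TopHat 2.0.13, with Bowtie 2 2.2.3 and SAMtools 0.1.19) and deposited FPKM values from Cuffnorm 2.2.1. The gene annotation and the Cuffnorm scaling are not given in the sources used here.

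The ratio of 50-cm over 2-cm FPKM was taken with no pseudocount where a feature exceeded 1 FPKM in each culture, and 2-fold was the limit for counts, as stated in the methods of the study. Groups followed the labels. Depth is unknown, so no interval was computed. Among 574 features with values under 0.1 FPKM but not 0 in each culture, the ratio of 219 lay within 0.2% of 1.098, the value of 1 read against 1. For features not above 1 FPKM in both, the smallest read numbers up to 20 that gave a ratio within 0.005% were recorded, and multiples of them give the same ratio.

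The genes and lists were chosen with earlier results of these data known. Named were the 10 genes, their families, the genes past 2-fold or else the extremes of each list, the features nearest to SPP1 and CD44, and the top features. Other list genes were named after their values were seen, among them those past 1.5-fold, and so were genomic neighbors. RefSeq names matched all 15 family genes. Alternatives were other FPKM minima, pseudocounts, scalings and a 1.5-fold limit. Scripts (Python 3.11.15, numpy 2.4.6, pandas 2.3.3, matplotlib 3.10.9) were tested on simulated data.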

Additional observations from a re-analysis of the deposited data

How the results depend on the processing

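No alternative brought any of the 6 genes with values above 1 FPKM in both cultures, or GPC4 where the minimum allowed it, past 2-fold, and 2 passed the 1.5-fold limit. HAS2, SDC2 and GPC6 gave no ratio under any alternative. The median log2 ratio of the genes, 0.05, became 0.062 at a minimum of 0.1 or of 0 FPKM in both cultures, which added GPC4. It was 0.037 when recentred on the median, 0.019 with the same sum, 0.0082 with the same sum without SPP1 and 0.031 with quantile normalization, and it moved by less than 0.01 with the other minima and the pseudocounts. The count of all features past 2-fold, 185, was 730, 356 and 1216 at minima of 0.1 in both, 1 in at least one and 0 in both, 62 at 5, 92 with a pseudocount of 1 and 795 at 1.5-fold. Over the 79 pathway genes above 1 FPKM in both cultures, 766 of 781 alternative values kept their sign and 14 changed it, in 8 genes (SDC1, SDC3, TMEM2, HMMR, PDCD6IP, NOTUM, EXTL2 and HPSE), and that of SPP1 under quantile normalization was 0 by construction. The scalings put the median of all features between -0.03 and 0.01. No paired analysis was possible because each group has 1 sample, and leaving out a replicate was not possible for the same reason.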

Other observations

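Of the 138 pathway genes in the files, 30 were listed at 0 in both cultures, and 19 had values above 0 in both without exceeding 1 FPKM in both. Of these 19, 9 had a ratio past 2-fold, and none of the 9 counts as a call. Among all features, 1216 passed 2-fold when every nonzero pair was counted, against 185 above 1 FPKM. Most of those 1216 features thus did not exceed 1 FPKM in both cultures. The share past 2-fold among low features alone was not computed, so the 9 of 19 are not read as a result about these genes. Of the 9, MMP9, a gelatinase that docks on CD44, had 0.382 FPKM in the 2-cm culture and 0.0381 FPKM in the 50-cm culture. No read numbers met the tight tolerance for MMP9, which does not show that its low 50-cm value rests on many reads. ALPL, the tissue-nonspecific alkaline phosphatase that can dephosphorylate osteopontin, had 1.28 and 0.522 FPKM, and HAPLN3, a link protein for hyaluronan, had 0.335 and 0.0755 FPKM.

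KIAA1199, a hyaluronan-degrading factor now named CEMIP, had 0.151 and 0.365 FPKM, a ratio that 11 reads against 5 give. CSPG4, a chondroitin sulfate proteoglycan, had 0.00957 and 0.0420 FPKM, the ratio of 4 reads against 1, and ITIH2, an inter-alpha-trypsin inhibitor heavy chain that binds hyaluronan, had 0.0666 and 0.0146 FPKM, the ratio of 1 read against 5. The remaining 3 were IBSP, GPC3 and GPLD1, with the values given above.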
